A study of Mus musculus with 5 samples.

Results

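A set of 10 genes of the stomach lining were followed through 5 cultures of mouse pancreatic cells: the junction protein genes Cldn18 and Vsig1, the trefoil factors Tff1, Tff2 and Tff3, the gastrokines Gkn1, Gkn2 and Gkn3, the annexin Anxa10 and the protease gene Ctse. They were measured as 10 of 19938 genes on Affymetrix whole-transcript arrays, each member by 1 probe set that is annotated with its symbol alone. They are genes of gastric epithelium other than mucins, and the group was put together because Cldn18 and Vsig1 stood high in 1 array of a tumour culture. The values of these 2 genes are therefore given as a description with no test, while the other 8 members were read from a fit over all genes.

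Tumour cells came as 3 cultures of pancreatic ductal adenocarcinoma (PDAC) with the genotype APCL/+p53L/L, that is, 1 floxed allele of the tumour suppressor Apc and a pair of floxed p53 alleles. The normal pancreatic ductal group held 2 cultures with the floxed p53 alleles (P53L/L) and no floxed Apc. By their titles the mice carried Pdx-1Cre, a driver of Cre in the pancreatic lineage; the title of normal ductal replicate 2 names Pdx-1 without Cre and pancreatic cells without the word ductal, which its other labels have, and that of PDAC replicate 3 alone adds the words mutant cell. The p53 alleles are thus shared by both groups, no group has unaltered p53, and how far the alleles were recombined was not measured here. Cells had been in serum medium for fewer than 6 passages; the label that says so mentions PDAC cells, and the normal ductal samples carry the same wording. The labels call the samples biological replicates and name no animals or clones, so a p-value measures only the spread between these 5 cultures.

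Trefoil factors are small secreted peptides that are stored with mucins and help surface epithelium to close wounds, and gastrokines are secreted by the pit cells of the stomach. Adult pancreas holds little of either. Early pancreatic neoplasia, in mouse and human, is known to take on a gastric pit or pyloric gland character, with trefoil factors, cathepsin E, annexin A10 and claudin 18 among its usual markers. Cldn18 has alternative first exons, which give a lung type and a stomach type of claudin 18. Its probe set here is annotated to 4 RefSeq transcripts, so these forms were not separated.

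In the GRCm38 assembly Cldn18 lies on chromosome 9 from 99690796 to 99717267 and Vsig1 on chromosome X from 140907608 to 140939472. The trefoil factors lie side by side on chromosome 17, Tff3 from 31125306 to 31129611, Tff2 from 31141062 to 31144282 and Tff1 from 31161395 to 31165060. The gastrokines are neighbours on chromosome 6, with Gkn1 from 87345653 to 87350915, Gkn2 from 87373365 to 87379494 and Gkn3 from 87383319 to 87388935. Anxa10 is on chromosome 8 from 62057042 to 62123193, and Ctse on chromosome 1 from 131638314 to 131675507.

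RefSeq promoters of GRCm38.p6, running from 250 bases before to 50 bases after a transcript start, were matched for 6 of the 10 genes and gave 7 sequences. Tff1, Tff2, Tff3 and Ctse were not matched. The 4 sequences that follow belong to 3 genes with their highest signal in PDAC replicate 3, and for Cldn18 both annotated starts, 7204 bases apart, are shown. They are printed 5′ to 3′ on the gene's strand, with capitals at each GATA word searched. These words are forms of the core to which GATA factors of the stomach and pancreas bind. The GATA words searched were AGATAA or AGATAG, and TGATAA or TGATAG, on both strands. The intervals are chr9:99717218-99717517 (minus strand) for the upstream start of Cldn18, chr9:99710014-99710313 (minus strand) for its downstream start, chrX:140907358-140907657 (plus strand) for Vsig1 and chr6:87373115-87373414 (plus strand) for Gkn2.
Cldn18 upstream start: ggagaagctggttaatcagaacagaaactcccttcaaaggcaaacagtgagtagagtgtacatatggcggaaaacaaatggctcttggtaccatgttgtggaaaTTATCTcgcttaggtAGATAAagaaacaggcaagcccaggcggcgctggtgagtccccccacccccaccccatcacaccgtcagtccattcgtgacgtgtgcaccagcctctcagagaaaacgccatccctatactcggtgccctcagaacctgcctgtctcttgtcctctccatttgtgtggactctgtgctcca
Cldn18 downstream start: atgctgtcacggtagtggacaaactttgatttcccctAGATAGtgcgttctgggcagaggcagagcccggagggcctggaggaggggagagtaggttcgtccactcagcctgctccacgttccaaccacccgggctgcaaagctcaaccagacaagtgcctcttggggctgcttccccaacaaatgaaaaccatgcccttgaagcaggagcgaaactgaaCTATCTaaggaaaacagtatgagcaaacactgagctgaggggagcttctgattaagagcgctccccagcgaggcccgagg
Vsig1: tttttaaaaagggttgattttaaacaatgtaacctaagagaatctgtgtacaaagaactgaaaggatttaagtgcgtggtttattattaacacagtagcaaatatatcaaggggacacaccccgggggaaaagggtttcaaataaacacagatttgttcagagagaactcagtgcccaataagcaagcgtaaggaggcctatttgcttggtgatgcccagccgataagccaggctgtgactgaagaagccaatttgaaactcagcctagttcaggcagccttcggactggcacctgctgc
Gkn2: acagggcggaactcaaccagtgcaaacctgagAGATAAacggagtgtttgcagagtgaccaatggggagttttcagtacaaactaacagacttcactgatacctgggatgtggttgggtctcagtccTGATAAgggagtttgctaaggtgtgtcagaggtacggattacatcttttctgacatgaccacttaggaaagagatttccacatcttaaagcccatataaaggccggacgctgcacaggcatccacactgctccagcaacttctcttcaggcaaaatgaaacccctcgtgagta

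A GATA word was present in 6 of the 7 member promoters, against 29.8% of the 32851 promoters of that length, and each of the 6 held at least 2, against 7.77% of all promoters. Gkn3 held 3 such words. Vsig1, the member with the widest gap between PDAC replicate 3 and the other cultures, held none of the searched words. Its window does hold GATAA after a C (cgataa), a form that was not searched. The words were chosen after the member promoters had been seen, and a match is a description of the letters, not of binding. The TCF/LEF words CTTTGAT and CTTTGAA, which bind the partners of beta-catenin, were found once at each start of Cldn18 and in no other member, against 8.65% of all promoters. The FOXA words TGTTTAC and TATTTAC were found in Anxa10 alone, where the match shares 1 base with a GATA word, against 6.54% of all promoters. TATAAA was found in Gkn2, 29 bases before the start, and in Anxa10, 32 bases before it, against 13.6% of all promoters.

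**Figure D1:**
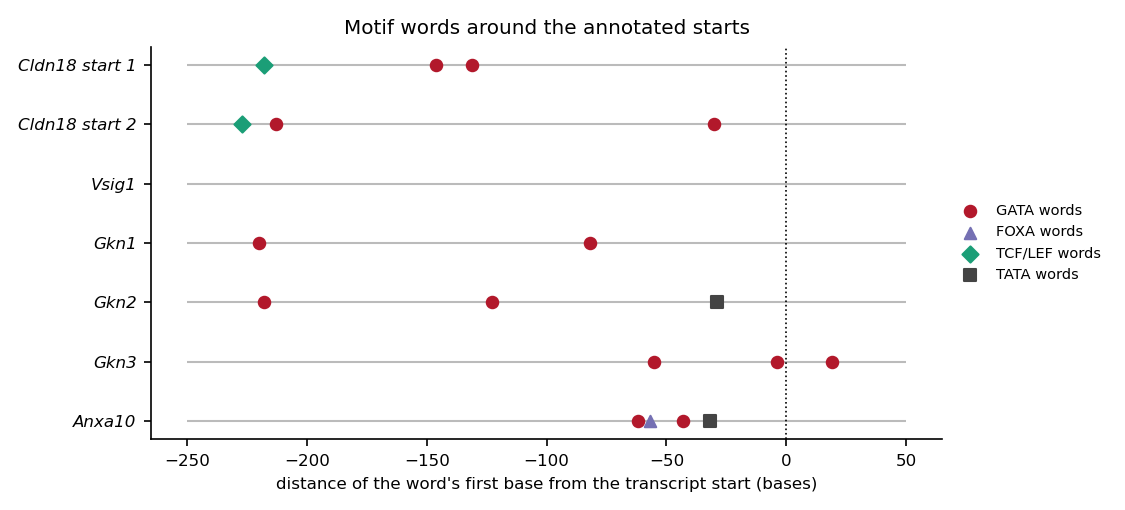
Motif words in the 7 RefSeq promoter windows of 6 member genes, by the distance in bases of the word's first base from the transcript start (dotted line). GATA words lie at both Cldn18 starts, in the 3 gastrokine promoters and in Anxa10, and none lies in Vsig1.

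Cldn18, the claudin that seals the paracellular path of gastric and alveolar epithelium, had log2 signals of 5.25, 6.16 and 10.70 in PDAC replicates 1, 2 and 3, against 5.94 and 7.97 in normal ductal replicates 1 and 2. PDAC replicate 3 alone stood high, 6.65-fold above the higher normal ductal culture and 23.3-fold above PDAC replicate 2, while PDAC replicate 1 was the lowest of the 5. The groups overlapped. The means were 7.37 ± 2.92 (SD, n = 3) in PDAC and 6.96 ± 1.44 (SD, n = 2) in normal ductal cultures, a log2 fold change of 0.42 (SE 2.02). Without PDAC replicate 3 the log2 fold change was -1.25, and without normal ductal replicate 1 it was -0.60. It was 1.48 without PDAC replicate 1, 1.02 without PDAC replicate 2 and 1.43 without normal ductal replicate 2.

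Vsig1, an adhesion protein of the junctions between gastric epithelial cells, had log2 signals of 4.0, 6.32 and 9.26 in PDAC replicates 1, 2 and 3, against 4.57 and 3.95 in normal ductal replicates 1 and 2. PDAC replicate 3 was again the highest, with a signal 4.69 log2 units above the higher normal ductal culture and 7.68-fold above PDAC replicate 2. Both normal ductal values lie under the 25th percentile of all gene means (4.90), and no detection calls were used here, so whether these signals are above background is not known and no fold is given against them. PDAC replicate 2 was the second highest here, whereas for Cldn18 that place fell to normal ductal replicate 2. PDAC replicate 1 lay between the normal ductal values. The log2 fold change of the group means was 2.27 (SE 1.73). With 1 culture left out it ran from 0.90 (without PDAC replicate 3) to 3.53 (without PDAC replicate 1).

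Among the trefoil factors, Tff2, the peptide of mucous neck and pyloric gland cells, had log2 signals of 5.13, 5.44 and 6.62 in PDAC replicates 1, 2 and 3, against 5.35 and 5.39 in normal ductal replicates 1 and 2. PDAC replicate 3 was 2.27-fold above the next culture, and the other 4 lay within a narrow band. Tff1, the peptide of gastric pit cells, had 6.69, 8.13 and 7.18 in PDAC replicates 1, 2 and 3, against 6.75 and 7.91 in normal ductal replicates 1 and 2. Its highest culture was PDAC replicate 2, with normal ductal replicate 2 close to it, and the groups overlapped throughout. Tff3, the peptide of intestinal goblet cells, had 5.50, 5.23 and 5.50 in PDAC and 5.65 and 5.44 in normal ductal cultures, a range of 0.42. The log2 fold changes were 0.36 (SE 0.51) for Tff2, 0.0028 (SE 0.61) for Tff1 and -0.14 (SE 0.13) for Tff3, and none passed the limma test, with adjusted p of 0.754, 1 and 0.639. Of the trefoil neighbours on chromosome 17, only Tff2 was thus highest in PDAC replicate 3. Tff1 led in PDAC replicate 2 by only 0.22, and the range of Tff3 was under the median range of all genes (0.487).

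The gastrokines gave low signals. Gkn2, which binds Tff1 in gastric mucus, had log2 signals of 4.09, 4.08 and 5.36 in PDAC replicates 1, 2 and 3, against 4.09 and 3.92 in normal ductal replicates 1 and 2. PDAC replicate 3 stood 1.27 log2 units above the next culture, and the other 4 were nearly level and under the same percentile. Gkn3, a gastrokine of mouse stomach, was also highest there, with 4.41, 4.72 and 5.17 in PDAC against 4.72 and 4.26 in normal ductal cultures, but the gap to the next culture was only 0.45. Gkn1, the major gastrokine of pit cells, stayed between 5.38 and 5.44 in PDAC and at 5.55 and 5.30 in normal ductal cultures. Log2 fold changes were 0.51 (SE 0.49) for Gkn2, 0.28 (SE 0.29) for Gkn3 and 0.0014 (SE 0.090) for Gkn1, with limma adjusted p of 0.652, 0.684 and 1. Equal values in 2 or more arrays occurred for Tff3, Gkn1, Gkn2 and Gkn3, as they did for 47.8% of all genes.

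Ctse and Anxa10 followed another order. Ctse, an aspartic protease of the endosomes of gastric epithelium, had log2 signals of 5.82, 9.67 and 11.55 in PDAC replicates 1, 2 and 3, against 11.43 and 12.18 in normal ductal replicates 1 and 2. PDAC replicate 1 was 14.4-fold below the next culture, PDAC replicate 2 lay below both normal ductal cultures, and PDAC replicate 3 lay between them. Anxa10, an annexin of gastric epithelium with little known function, had 4.28, 7.03 and 7.71 in PDAC replicates 1, 2 and 3, against 7.40 and 9.34 in normal ductal replicates 1 and 2. Here too PDAC replicate 1 was the lowest, its signal 2.75 log2 units below the next culture and under the 25th percentile of gene means, and PDAC replicate 3 lay between the normal ductal values. For both genes, then, the culture with the most Cldn18 and Vsig1 was not above the higher normal ductal culture.

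The mean of Ctse was 9.02 ± 2.92 (SD, n = 3) in PDAC and 11.81 ± 0.53 (SD, n = 2) in normal ductal cultures, a log2 fold change of -2.79 (SE 1.93, limma adjusted p = 0.551). That of Anxa10 was 6.34 ± 1.82 (SD, n = 3) in PDAC and 8.37 ± 1.37 (SD, n = 2) in normal ductal cultures, a log2 fold change of -2.03 (SE 1.35, limma adjusted p = 0.550). Without PDAC replicate 1 these log2 fold changes were -1.19 and -1.0. Without PDAC replicate 3 both PDAC cultures left were below both normal ductal cultures for these genes, and the groups did not overlap for 37.1% of all genes. The log2 fold changes were -4.06 for Ctse and -2.71 for Anxa10, with limma adjusted p of 0.461 and 0.569. In bulk RNA, fewer cells that express a gene and less RNA per cell cannot be told apart, for these genes as for the others.

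**Figure D2:**
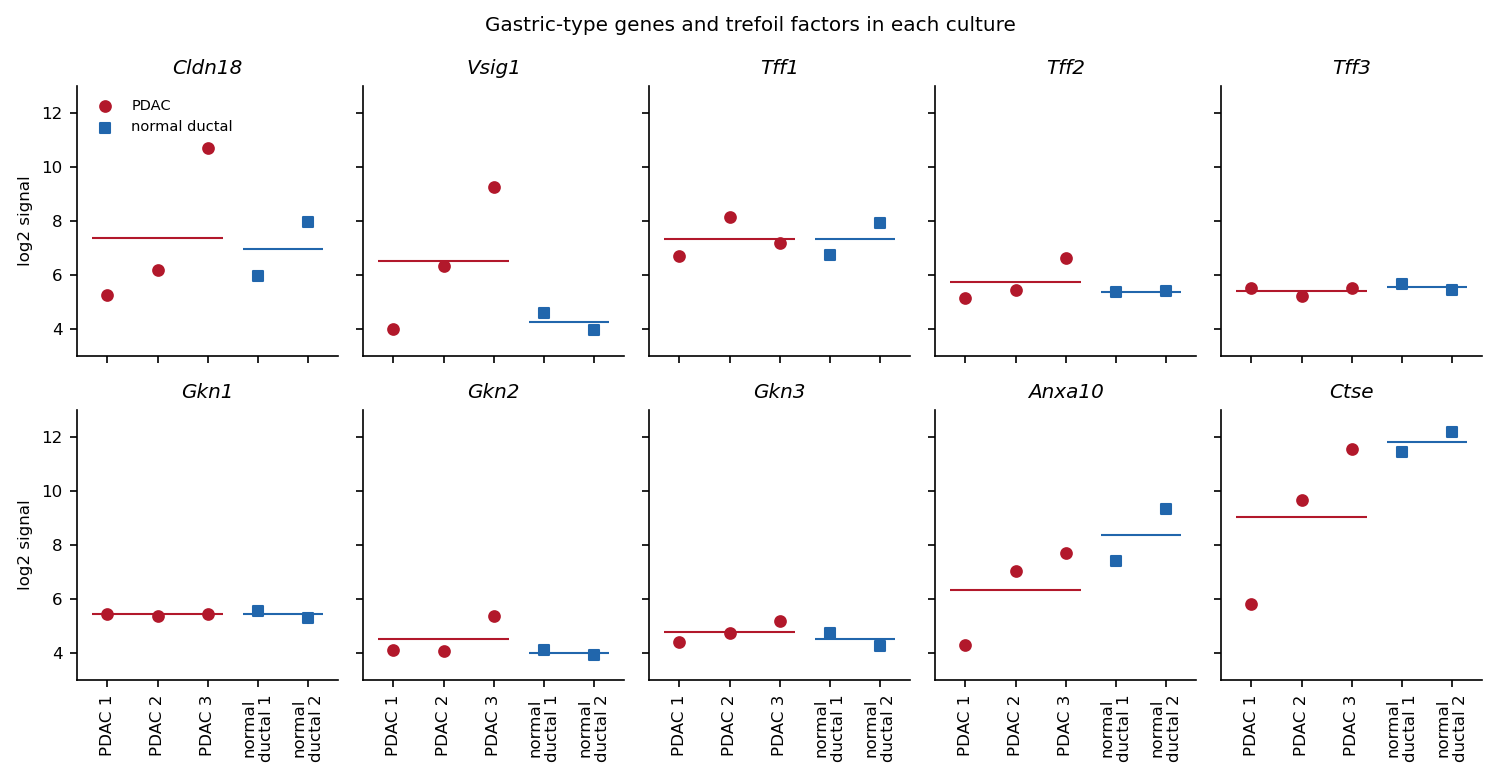
Log2 signal of the 10 genes in each culture, PDAC replicates as red circles and normal ductal replicates as blue squares, with lines at the group means. Cldn18 and Vsig1 are highest in PDAC replicate 3 at 10.70 and 9.26, while Ctse and Anxa10 are lowest in PDAC replicate 1 at 5.82 and 4.28.

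Set against all genes, the limma moderated test called 0 of the 8 members tested at an adjusted p under 0.05, and 0 at an unadjusted p under 0.05. Over all 19938 genes it called 11 (0.0552% of those tested), 1 higher (0.00502%) and 10 lower (0.0502%), and 2663 (13.4%) had an unadjusted p under 0.05. With quantile normalization the split over all genes was 9 higher and 32 lower, and with a common array median 10 higher and 23 lower. The PDAC and normal ductal values overlapped for all 10 members, whereas they did not for 26.4% of all genes, 13.6% with PDAC higher and 12.8% with PDAC lower. The median log2 fold change was 0.14 over the 10 members, 0.0021 over the 8 tested and 0.0069 over all genes. With 3 cultures against 2 the intervals were wide, and a missed threshold does not show equal levels.

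**Figure D3:**
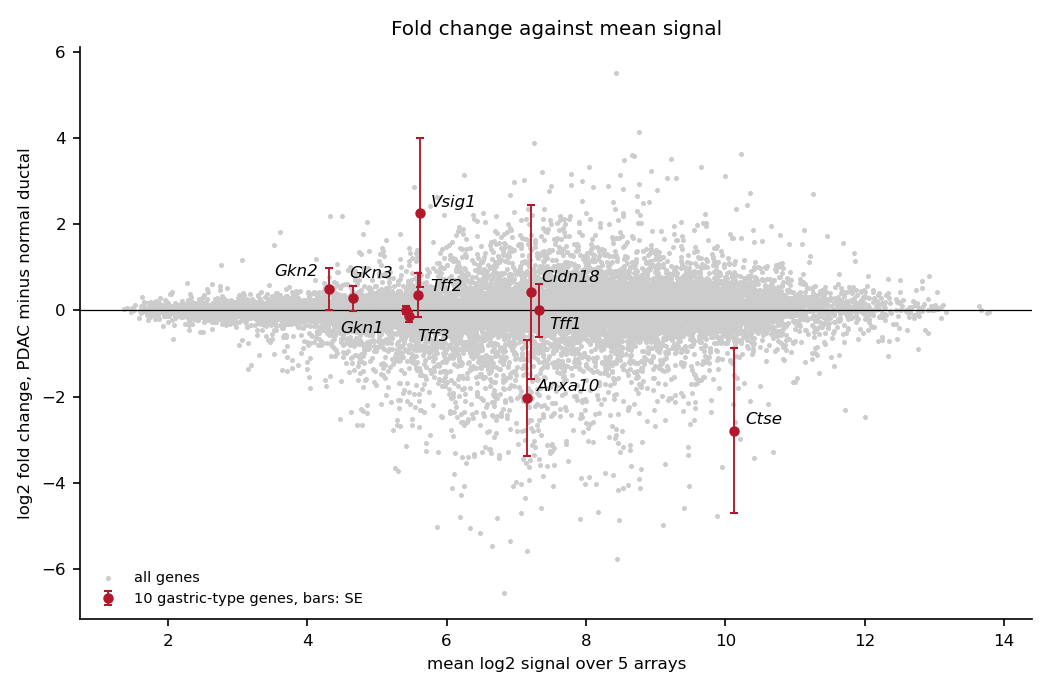
Log2 fold change of PDAC minus normal ductal against the mean log2 signal over 5 arrays, for all genes (grey) and the 10 gastric-type genes (red, bars are the SE). Ctse at -2.79 and Vsig1 at 2.27 lie farthest from 0 and carry SEs of 1.93 and 1.73.

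Spread between single cultures was wide for some members. Signals of 4 members, Cldn18, Vsig1, Anxa10 and Ctse, ranged over more than 2 log2 units, which 6.52% of all genes did. Cldn18 and Vsig1 were chosen for a high value in 1 array, which fixes a wide range, so the count apart from the choice is 2 of the other 8. The median range of all genes was 0.487. Ctse had a range of 6.36, Cldn18 5.45, Vsig1 5.31 and Anxa10 5.06. Tff3, Gkn1 and Gkn3 ranged over less than 1. Relative to the mean of the normal ductal cultures, PDAC replicate 1 was more than 1 lower for Cldn18, Anxa10 and Ctse (5.44% of all genes) and more than 1 higher for 0 members (3.54%). PDAC replicate 2 was more than 1 higher for Vsig1 (3.54% of all genes) and more than 1 lower for Anxa10 and Ctse (4.95%). PDAC replicate 3 was more than 1 higher for Cldn18, Vsig1, Tff2 and Gkn2 (3.27% of all genes) and more than 1 lower for 0 members (4.35%). For Cldn18 and Vsig1 the choice fixed this, and apart from them the higher count is 2 of the other 8. Each of these compares 1 array with the normal ductal mean and has no test.

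PDAC replicate 3 exceeded every other culture by more than 1 in the same 4 genes, Cldn18, Vsig1, Tff2 and Gkn2. It did so in 0.863% of all genes. Cldn18 and Vsig1 were chosen by that array and the list was put together around them, so nothing is read from this count. Apart from these 2 genes it was 2 of the other 8. PDAC replicate 1 was more than 1 below every other culture for Ctse and Anxa10, as it was for 0.607% of all genes. Normal ductal replicate 2 was more than 1 above every other culture for Anxa10 alone (1.13% of all genes). The members just inside a gap of 1 in PDAC replicate 3 were Tff2 at 1.18 and Gkn2 at 1.27, and the nearest outside was Gkn3 at 0.45.

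Transcription factors of the gastric and foregut lineage were examined next, with 18 of 20 listed factors measured. Whether they regulate the members was not tested. Limma called 0 of the 18. An unadjusted p under 0.05 was found for 2, both lower, against 13.4% of all genes. The median log2 fold change of the 18 was -0.0074. PDAC replicate 3 was more than 1 above every other culture for Gata5 and Foxa2, both picked out after their values were seen. Gata5, a GATA factor of gut endoderm, had log2 signals of 5.63, 5.94 and 9.67 in PDAC replicates 1, 2 and 3, against 5.79 and 5.69 in normal ductal replicates 1 and 2. Its 4 other cultures were nearly level, so the gap of 3.74 was wider than that of Cldn18 or Vsig1. Foxa2, a forkhead factor of endoderm, had 6.99, 6.91 and 9.67 in PDAC against 7.96 and 8.46 in normal ductal cultures, so the normal ductal values lay between PDAC replicate 3 and the other PDAC cultures.

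Gata4, which with Gata6 shapes stomach and pancreas, had 8.81, 8.70 and 9.68 in PDAC replicates 1, 2 and 3, against 8.26 and 8.75 in normal ductal cultures. Hnf4a, a nuclear receptor of gut epithelium, had 5.80, 7.19 and 8.43 in PDAC against 7.0 and 8.26 in normal ductal cultures, lowest in PDAC replicate 1 as for Ctse and Anxa10. Gata6 and Klf5 were likewise more than 1 below every other culture in PDAC replicate 1, Gata6 at 7.65 there and at 9.54 and 9.34 in PDAC replicates 2 and 3. Sox2, a regulator of stomach identity, had 5.43, 5.27 and 5.27 in PDAC against 5.27 and 4.89 in normal ductal cultures. By the rule for named genes, Foxa3 had a log2 fold change of -1.39 (SE 0.17, limma adjusted p = 0.156) and Hnf4g -0.38 (SE 0.11, adjusted p = 0.309).

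**Figure D4:**
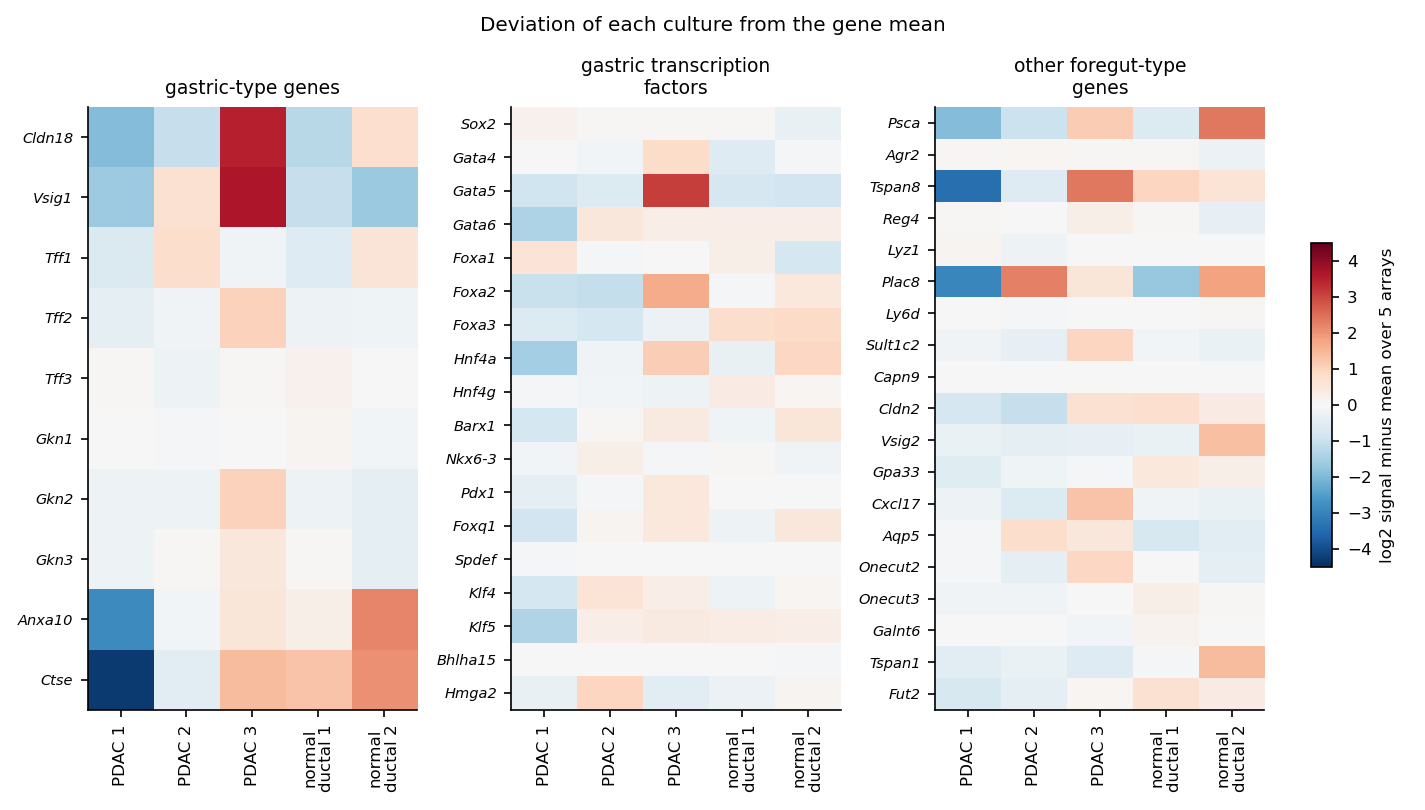
Log2 signal of each culture minus the gene's mean over the 5 arrays, for the 10 gastric-type genes, 18 gastric transcription factors and 19 other foregut-type genes. Cldn18, Vsig1 and Gata5 are high in PDAC replicate 3, and Ctse, Anxa10, Tspan8 and Plac8 are low in PDAC replicate 1.

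Of other foregut-type genes described in pancreatic neoplasia, 19 of 20 were measured, and their median log2 fold change was -0.11. Limma called 0, while 1 higher and 2 lower genes had an unadjusted p under 0.05, against 13.4% of all genes. Aqp5, a water channel of pyloric glands, had a log2 fold change of 1.03 (SE 0.28, adjusted p = 0.296) and Gpa33, a relative of Vsig1 best known from intestine, -0.64 (SE 0.18, adjusted p = 0.306). Tspan8, Sult1c2 and Cxcl17, named after their values were seen, were more than 1 above every other culture in PDAC replicate 3, Tspan8 with 4.06, 6.87 and 9.82 in PDAC against 8.41 and 8.04 in normal ductal cultures. Psca, a surface protein of gastric and pancreatic neoplastic epithelium, had 4.55, 5.52 and 7.65 in PDAC against 5.88 and 8.88 in normal ductal cultures. Its order was near that of Anxa10, with normal ductal replicate 2 highest and PDAC replicate 1 lowest. Agr2, which folds mucins, stayed between 3.53 and 3.88 in every culture.

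Of 12 listed binding partners and receptors of trefoil factors 8 were measured. Limma called 0 of these 8, and 0 of the 8 had an unadjusted p under 0.05; their median log2 fold change was -0.079. The groups did not overlap for 4 of the 8, Ackr3 with PDAC higher and Cxcr4, Dmbt1 and Muc5ac with PDAC lower, against 26.4% of all genes. For Cxcr4 and Muc5ac the groups nearly touched, with 5.52 and 4.74 as the highest PDAC values against 5.54 and 4.80 in normal ductal replicate 1. Ackr3, a chemokine receptor related to Cxcr4, had log2 signals of 6.18, 8.27 and 6.82 in PDAC replicates 1, 2 and 3, against 5.47 and 5.74 in normal ductal replicates 1 and 2. It was highest in PDAC replicate 2, as Tff1 was, and its log2 fold change was 1.49 (SE 0.71, limma adjusted p = 0.509). The stomach mucins Muc5ac and Muc6 had signals of 4.49 to 4.74 and 4.98 in PDAC, against 4.80 to 5.09 and 4.98 to 5.05 in normal ductal cultures. Muc5ac had a log2 fold change of -0.29 (SE 0.13, adjusted p = 0.498), and the chemokine receptor Cxcr4, a proposed receptor of Tff2, -0.27 (SE 0.11, adjusted p = 0.428). Dmbt1, a secreted scavenger protein that binds trefoil factors, had 4.58, 4.63 and 4.57 in PDAC against 4.92 and 8.47 in normal ductal cultures, high in normal ductal replicate 2 alone.

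Genes of differentiated gastric cells had ranges of at most 1.12, and the members Gkn1, Tff3 and Gkn3 had 0.25, 0.42 and 0.91. A range over 2 was reached by 6.52% of all genes. Of 16 listed genes of parietal, chief and endocrine cells 15 were measured, 0 of them ranged over more than 2, limma called 0 (0 at an unadjusted p under 0.05) and the list mean lay between 4.94 and 5.09 in PDAC and at 5.04 and 4.99 in normal ductal cultures. The widest ranges were those of the potassium channel gene Kcnq1 (1.12) and of Pgc, a pepsinogen of chief cells (0.90). Both were highest in PDAC replicate 3, Kcnq1 with 5.63, 5.93 and 6.75 in PDAC against 6.11 and 6.30 in normal ductal cultures, and Pgc with 4.26, 4.36 and 5.04 in PDAC against 4.32 and 4.14. Their gaps to the next culture, 0.45 and 0.69, have no test. The proton pump gene Atp4a had 5.19, 4.90 and 5.25 in PDAC against 5.31 and 5.19 in normal ductal cultures. By the rule for named genes Lipf, the gastric lipase, had a log2 fold change of -0.18 (SE 0.10, adjusted p = 0.550) and the chloride transporter gene Slc26a7 0.099 (SE 0.059, adjusted p = 0.550). Markers of lung epithelium, for the most part alveolar, which bear on Cldn18, were 10 of 10 measured. Limma called 0 of them (0 at an unadjusted p under 0.05), 0 ranged over more than 2, and Sftpc was at 4.45 in each PDAC culture against 4.58 and 4.45 in normal ductal cultures. Scgb1a1 had a log2 fold change of -0.13 (SE 0.067, adjusted p = 0.550) and Lamp3 -0.16 (SE 0.093, adjusted p = 0.550).

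Intestinal genes, 15 of 15 measured, had a median log2 fold change of -0.0049, with 0 called by limma. Over all genes 13.4% had an unadjusted p under 0.05, and 2 of the 15 did, both lower. These were Krt20, a keratin of mature gut epithelium (-4.03, SE 0.76, adjusted p = 0.208), and Vil1, the microvillus protein villin (-1.92, SE 0.50, adjusted p = 0.288). The intestinal factor Cdx2 stayed between 5.85 and 6.08 in every culture.

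The mean of the epithelial markers rose from PDAC replicate 1 to 3, as did Ctse, Anxa10, Tff2 and Gkn3. An order of 3 cultures has no test, and the share of all genes with it was not counted. Tff1, Tff3, Gkn1 and Gkn2 did not follow this order. Cldn18 and Vsig1 did, but they were chosen for a high value in 1 PDAC array, so nothing is read from that. In normal ductal replicates 1 and 2, where this mean was highest, Ctse was at 11.43 and 12.18 and Anxa10 at 7.40 and 9.34. There Tff2 was at 5.35 and 5.39, Gkn3 at 4.72 and 4.26, Cldn18 at 5.94 and 7.97 and Vsig1 at 4.57 and 3.95. The mean log2 signal of 16 epithelial markers, 16 of 16 measured, was 6.13, 6.76 and 8.36 in PDAC replicates 1, 2 and 3, against 10.87 and 10.52 in normal ductal replicates 1 and 2. PDAC replicate 3 was thus the highest and PDAC replicate 1 the lowest of the tumour cultures by this mean. All PDAC values lay below both normal ductal values for 15 of the 16 markers, against 12.8% of all genes. Limma called 0 of them, and 11, each of them lower, had an unadjusted p under 0.05, against 13.4% of all genes. Grhl2 was at -2.53 (SE 0.20, limma adjusted p = 0.119) and Ap1m2 at -3.30 (SE 0.26, adjusted p = 0.119). The part of this difference in the values of the gastric-type genes was not tested.

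Some markers of other pancreatic and stromal cells stood high in normal ductal replicate 2, the culture whose title lacks the word ductal. In it Cldn18, Tff1 and Anxa10 were 2.03, 1.16 and 1.94 above normal ductal replicate 1. It exceeded every other culture by more than 1 for 3 acinar, 5 islet, 4 endothelial, 1 leukocyte and 2 fibroblast genes. This held for 1.13% of all genes. Of the fibroblast genes, Col1a1 (11.33) and Pdgfra (9.65) were lower there than in every PDAC culture. Examples in that culture, named after their values were seen, were Ctrb1, a chymotrypsinogen, at 12.26 and Gcg, the glucagon gene, at 10.22. The mean of 10 measured acinar markers was 5.17, 5.31 and 5.23 in PDAC against 5.19 and 7.0 in normal ductal cultures, and that of 9 islet markers 5.23, 5.12 and 5.19 against 6.04 and 7.71. The mean of 8 endothelial markers was 5.23, 5.18 and 5.26 in PDAC against 5.81 and 6.94, and that of 12 fibroblast and stellate cell markers 9.24, 9.12 and 8.91 against 7.29 and 10.02. The mean of 9 leukocyte markers was 5.11, 5.10 and 5.33 in PDAC against 5.76 and 6.18, with Ptprc, the pan-leukocyte gene, between 4.42 and 4.59 in every culture. Their part in the gastric-type values was not tested. Limma called 0 genes of these 5 lists. An unadjusted p under 0.05 was found for 1 acinar, 3 islet, 2 endothelial, 1 leukocyte and 0 fibroblast genes. Over all genes 13.4% had such a p.

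By the rule for named genes the lowest p among them belonged to Nr5a2 (-1.45, SE 0.37, adjusted p = 0.278) and Cela1 (0.93, SE 0.44, 0.503) of the acinar list, and to Nkx2-2 (-0.92, SE 0.14, 0.173) and Gcg (-4.29, SE 0.95, 0.236) of the islet list. They were Emcn (-3.72, SE 0.88, 0.253) and Cdh5 (-2.37, SE 0.79, 0.350) of the endothelial list, Cd14 (-2.78, SE 0.72, 0.282) and Lyz2 (-2.66, SE 0.96, 0.377) of the leukocyte list, and Des (-2.03, SE 0.75, 0.384) and Col3a1 (2.03, SE 0.95, 0.503) of the fibroblast list.

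Genes with a profile close to those of Cldn18 and Vsig1 were ranked by Pearson's r of the log2 signal over the 5 arrays, among 1299 other genes with a range of at least 2. With 5 points, 1 of them far from the rest, a high r is a description of the shape and has no test. Closest to Cldn18 was Upk1b, a uroplakin of urothelium (r = 0.980), with 4.63, 4.87 and 10.77 in PDAC against 6.02 and 7.58 in normal ductal cultures. It was followed by Ppp2r2b, a subunit of a protein phosphatase (0.966), the LIM protein gene Crip1 (0.964), the zinc finger gene Zfp979 (0.962) and Bace2, an aspartic protease (0.961). The 2 genes themselves correlated with r = 0.769, and normal ductal replicate 2 and PDAC replicate 2 take different places in their orders. Both genes were chosen for a high value in the same array, which favours a positive r, so nothing is read from it.

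Closest to Vsig1 were Lgals2, a galectin of gastric and intestinal epithelium (r = 0.99), Tigit, an inhibitory receptor known from T cells and natural killer cells (0.99), and Gsta4, a glutathione transferase (0.99). Hpse, which cleaves heparan sulphate, and Ppargc1a, a coactivator of mitochondrial genes, followed with 0.986 each. Lgals2 had 5.09, 6.65 and 8.75 in PDAC replicates 1, 2 and 3, against 5.02 and 5.16 in normal ductal cultures, with the same place for PDAC replicate 2 as in Vsig1. An r above 0.95 was reached by 8 genes for Cldn18 (0.616% of those compared) and by 19 for Vsig1 (1.46%).

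**Figure D5:**
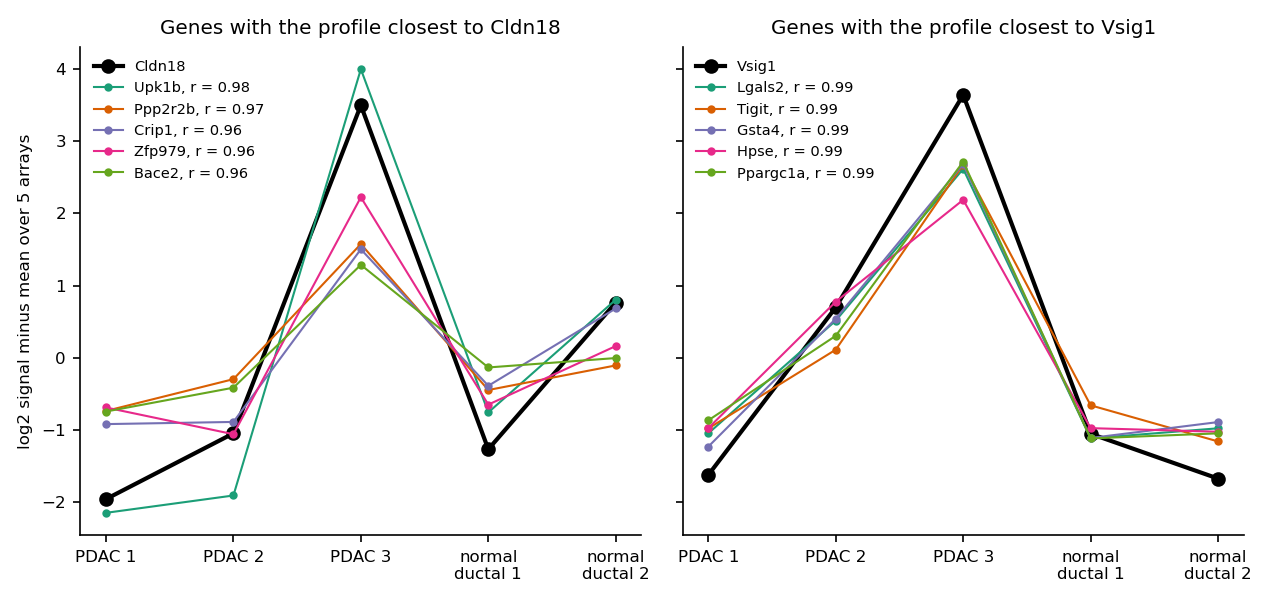
Log2 signal minus the mean over 5 arrays for Cldn18 (left) and Vsig1 (right), each with the 5 genes of highest Pearson's r. All profiles peak in PDAC replicate 3; normal ductal replicate 2 is the second highest culture for Cldn18, and PDAC replicate 2 for Vsig1.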

How the data were processed

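The deposited values are log2 signals of 35556 probe sets on 5 arrays, as the authors processed them. The submitters' processing notes name Transcriptome Analysis Console 1.0.0.234 and mm10. How background and normalization were handled is not given in the sources used here. That the log base is 2 was read from the values, which span 0.727 to 13.9 with array medians of 5.90 to 6.02. Probe sets with 1 gene symbol (21789) were kept, those with several (1621) or none (12146) were not, and, where a gene had several, the one with the highest mean, which gave 19938 genes. Each gene was fitted with limma 3.58.1 in R 4.3.3 (eBayes with an intensity trend, two-sided); p-values were Benjamini-Hochberg adjusted across those genes and called under 0.05. The fit was tested on simulated data. Python 3.11.15, pandas 2.3.3, numpy 2.4.6 and matplotlib 3.10.9 did the rest. The members and lists were chosen with earlier results of these data known.

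By rule the text names the 10 members, the 2 genes of smallest p in each list with no call, and the 5 genes closest in profile to Cldn18 and to Vsig1. All other genes were named after their values were seen. The alternatives tried were 2 other scalings (quantile, or each array set to a common median), filters that drop the lowest 25% or 50% of genes, limma without the trend or with robust variances, averaging a gene's probe sets, the replicate number as a block, and omission of each culture in turn.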

Additional observations from a re-analysis of the deposited data

How the results depend on the processing

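Limma called 0 of the members tested under each of the 13 alternatives; of the 8, dropping the lowest 25% of genes left 6 and dropping the lowest 50% left 3 (Tff1, Anxa10 and Ctse). The count over all genes, 11 as reported, was 41 with quantile normalization, 33 with a common array median, 42 without the lowest 50% of genes, 0 with the replicate number as a block and 0 to 1287 with 1 culture left out (0 without any 1 PDAC culture, 1287 without normal ductal replicate 1, 990 without normal ductal replicate 2). The context lists together, at 0, had 3, 1 and 4 calls under the first 3 of these and 0 to 28 with 1 culture left out (28 without normal ductal replicate 1, 11 without replicate 2). Members whose groups did not overlap, 0 as reported, came to 1 (Gkn2) with a common array median, when 47.7% of all genes did not overlap. With 1 culture left out there were 0 to 6: Vsig1 and Tff2 without PDAC replicate 1 (32.4% of all genes), Anxa10 and Ctse without PDAC replicate 3 (37.1%), 6 members without normal ductal replicate 1 (54.9% of all genes), and Tff3 and Gkn1 without normal ductal replicate 2 (52.7%). Fewer cultures make an overlap less likely. The median log2 fold change of the members was -1.01 without the lowest 50% of genes, which left 4 members, and between -0.046 and 0.39 with 1 culture left out. Small fold changes turned sign: Tff2 to -0.083 and Gkn1 to -0.0086 with the replicate block, and with 1 culture left out Tff2 ran from -0.083 to 0.66, Gkn1 from -0.13 to 0.13 and Tff1 from -0.58 to 0.58. Counts of members more than 1 from the normal ductal mean stayed within 1.5 times under both scalings and without either normal ductal culture. The labels do not say that a replicate number pairs cultures; deviations of same-numbered cultures correlated over genes at -0.178 and -0.0422. Under the block PDAC replicate 3 has no partner and adds nothing to the estimates, which equal those without it, and the block changed no call of a member. The number of arrays limits the precision. With a normal ductal culture left out, the lone one is assumed to vary as the PDAC cultures do.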

Other observations

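Tigit, which came close to Vsig1 in profile, had log2 signals of 6.74, 7.83 and 10.39 in PDAC replicates 1, 2 and 3, against 7.06 and 6.56 in normal ductal replicates 1 and 2. The T cell receptor gene Cd3e had 5.57, 5.50 and 5.57 in PDAC against 5.80 and 5.27 in normal ductal cultures, and Ptprc 4.59, 4.59 and 4.42 against 4.59 and 4.59, so neither was high where Tigit was.

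Plac8, named after its values were seen, a gene of invasive pancreatic cancer cells, had the widest range of the foregut-type genes outside Tspan8, with 3.99, 9.20 and 7.47 in PDAC replicates 1, 2 and 3, against 5.24 and 8.75 in normal ductal replicates 1 and 2. Like Ctse and Anxa10 it was lowest in PDAC replicate 1, but its highest culture was PDAC replicate 2.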
